A study of Xenopus laevis with 5 samples.

Results

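The genes pax3, snai1, snai2 and the tfap2 family were followed in Xenopus laevis ectodermal explants in which an injected zic1 had been switched on. The members were all probe sets whose single gene symbol in the platform annotation, without the suffix of the gene copy, was pax3, snai1, snai2, tfap2a, tfap2b or tfap2c. This gave 10 probe sets of 7 symbols, out of 15490 probe sets tested. 5 of them belong to pax3 (4 to pax3.L and 1 to pax3.S), 1 to snai1.S, 1 each to snai2.L and snai2.S, 1 to tfap2a.L and 1 to tfap2b.L. No probe set with a single symbol carried tfap2c, and 0 probe sets with several symbols carried a member. This frog is allotetraploid, and .L and .S name its paired copies of a gene.

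The neural plate border is the strip of embryonic ectoderm between the neural plate and the epidermis. Intermediate BMP signals, together with Wnt and FGF signals, switch on border specifiers there, among them pax3, zic1, msx1 and tfap2a. In Xenopus, pax3 and zic1 act together upstream of the neural crest specifiers, which include snai1, snai2, foxd3, sox9 and tfap2b. Pax3 is a paired-box homeodomain transcription factor of the border and of the dermomyotome, snai1 and snai2 are zinc-finger repressors of epithelial genes with roles in crest and mesoderm, and the AP-2 factors encoded by tfap2 genes act in epidermis, border and crest.

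The 2 groups shared most of their treatment. Embryos at the 2-cell stage were injected either with a zic1 construct meant to stay inactive until hormone is added or with beta globin. Both groups also received noggin, a secreted BMP antagonist used to make such explants neural. Whether noggin had made these explants neural was not tested. Ectoderm was cut at stage 9 and grown for a time equal to stage 12. Cycloheximide, a blocker of protein synthesis, was added to both groups 30 min before dexamethasone, the hormone, and RNA was taken after 3 h of hormone. The comparison sets active zic1 against beta globin, with cycloheximide in both groups, on 2 zic1 arrays and 3 control arrays. No array holds the zic1 construct without hormone. Any activity of the construct before hormone and cycloheximide thus cannot be told apart from its activity after them. The explants are whole pieces of injected tissue rather than sorted cells. The labels call the arrays biological replicates but do not say from which embryos, clutches or days the replicates came. P-values therefore measure the spread between these arrays, which may be partly technical, and in bulk RNA more cells of a type and more RNA per cell cannot be told apart.

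The deposited values were linear ratios in which each probe set had a median of 1 over the 5 arrays. A value of 1 is thus a probe set's own middle array, and levels of different genes cannot be compared. Where both zic1 arrays lie above all controls, the highest control is that middle array and reads exactly 1. The injected gene was checked first. Of 2 probe sets of zic1.S, the one further from its controls read 5.28 and 5.07 with active zic1, against 1.00, 0.965 and 0.699 in control explants. The other read 1.68 and 1.76, against 1.00, 0.907 and 0.815. Both thus followed the labels of the groups, by unlike amounts (log2 differences of 2.56 and 0.93). It is not known here whether their probes detect injected RNA, endogenous zic1 or a mixture. Zic1 replicate 1, control 1 and control 2 shared exactly equal values. The 3 pairs of these arrays were both at exactly 1 in 743 to 929 probe sets, against 23 to 43 in the remaining 7 pairs. Among values other than 1, controls 1 and 2 were equal in 96 probe sets, and every other pair in 7 to 31. Results are therefore also given within that set and within a second set, zic1 replicate 2 with control 3. The second set is only the 2 arrays left over. They were both at exactly 1 in 25 probe sets and otherwise equal in 18, so equal values do not link them. A difference between these 2 arrays has no spread of its own.

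Of the 10 member probe sets, 3 were higher in the zic1 explants at an adjusted p under 0.05 (limma with Benjamini-Hochberg adjustment over all probe sets) and 0 were lower. They were snai1.S, pax3.S and 1 of 4 probe sets of pax3.L. Over the 15490 probe sets, 1.1% passed in the higher direction and 0.316% in the lower. At an unadjusted p under 0.05, 5 members were higher, against 10.6% of all probe sets. The median log2 difference of the 10 members was 0.47, and that of all probe sets was -0.00021. Both zic1 arrays lay above all controls in 7 members and below all controls in 2, which are shares to be read beside 19.9% and 19.4% of the whole table. The plot of the members on each array shows these values.

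**Figure D1:**
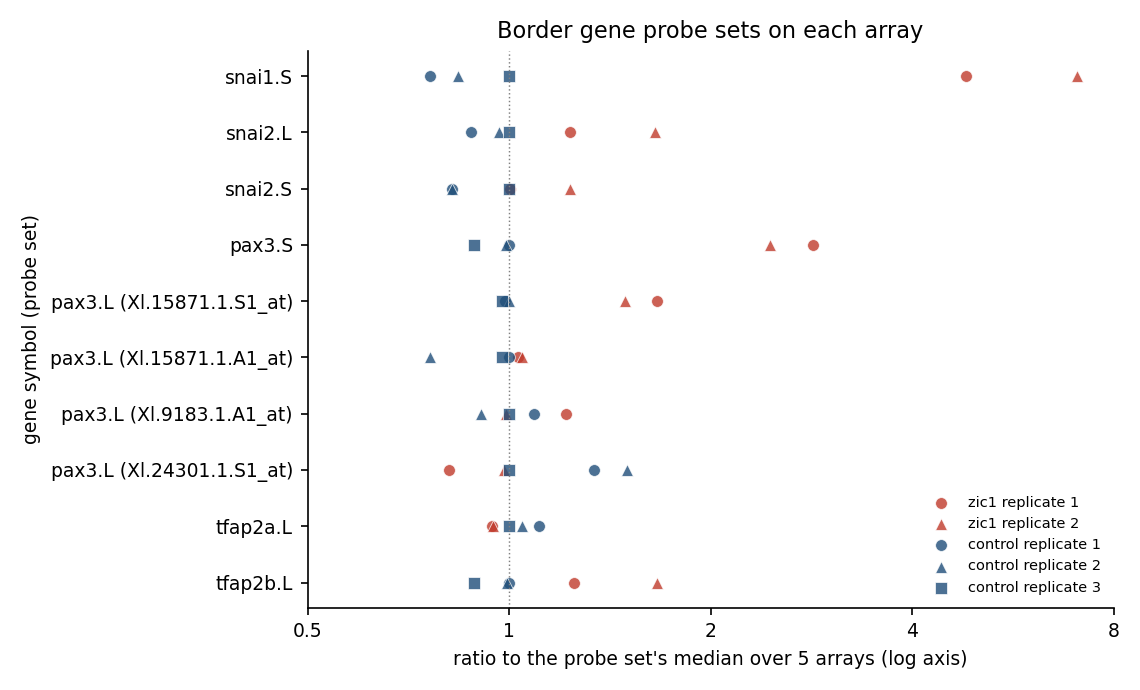
Ratio of each member probe set to its own median over the 5 arrays, on a log axis. Red marks are the 2 zic1 arrays and blue marks the 3 control arrays. Snai1.S and pax3.S stand apart from all controls (4.81 and 7.06, and 2.84 and 2.45), while the pax3.L probe sets other than Xl.15871.1.S1_at lie close to 1 or below the controls.

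Pax3 was the member with the most probe sets, and its copies and probe sets did not give 1 picture. The pax3.S probe set read 2.84 and 2.45 with active zic1, against 1.00, 0.989 and 0.885 in controls 1, 2 and 3, the order kept below. Both zic1 arrays stood well above the controls, which lay close together. The difference was 1.46 ± 0.11 on the log2 scale (SE; limma adjusted p = 0.0152), a 2.76-fold higher level with a 95% interval of 2.29 to 3.32. Only 0.407% of all probe sets had a more positive difference. Within the set of zic1 replicate 1 with controls 1 and 2 the log2 difference was 1.51, and within the other set it was 1.47. The name of this probe set ends in _s_at, the manufacturer's mark for probes that match more than 1 transcript, so its signal may hold RNA of both pax3 copies.

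The pax3.L probe set Xl.15871.1.S1_at read 1.66 and 1.49 with active zic1, against 0.987, 1.00 and 0.976 in control explants. The controls were nearly equal, and the groups did not overlap. Its log2 difference was 0.67 ± 0.08 (limma adjusted p = 0.0386), which is 1.59-fold with an interval of 1.38 to 1.84. Fitted with the 2 array sets as a block it was 0.69 and no longer passed (limma adjusted p = 0.0803), while the within-set differences were 0.74 and 0.61.

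The other 3 pax3.L probe sets did not pass. Xl.15871.1.A1_at, whose name shares the sequence cluster of the probe set above, read 1.03 and 1.05 with active zic1, against 1.00, 0.762 and 0.977 in control explants, a log2 difference of 0.20 ± 0.14 (limma adjusted p = 0.486). Its groups were separate by a narrow margin only. Xl.9183.1.A1_at read 1.22 and 0.991 in the zic1 arrays against 1.09, 0.908 and 1.00, with overlapping groups and a log2 difference of 0.14 ± 0.13 (limma adjusted p = 0.602). Xl.24301.1.S1_at pointed the other way. It read 0.814 and 0.981 with active zic1, against 1.34, 1.50 and 1.00 in control explants. Zic1 replicate 2 and control 3 were almost equal there, and the log2 difference of -0.50 ± 0.20 did not pass (limma adjusted p = 0.240). It was -0.80 within the set of zic1 replicate 1 and -0.03 within the other.

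The 4 pax3.L probe sets thus spanned 1.17 on the log2 scale. Whether all 4 detect pax3.L RNA equally well, or at all, was not tested. The span, the mean over the probe sets and the copy comparison below take them as equal measures. Among the 64 symbols with 4 probe sets the median span was 0.31, and 3.12% of those symbols, pax3.L included, spanned at least as much as pax3.L. Averaged over its probe sets before the fit, pax3.L differed by 0.13 ± 0.08 (limma adjusted p = 0.429 over symbols), while pax3.S and snai1.S still passed (adjusted p = 0.00720 for both).

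The copies of pax3 were compared within each array. The log2 ratio of pax3.S minus the mean of the pax3.L probe sets was 1.32 and 1.14 with active zic1, against -0.13, -0.03 and -0.16 in control explants. The zic1 arrays lay above every control, and the copy difference averaged 1.34 more with zic1 than in controls (95% t interval 1.08 to 1.60). Intervals of copy differences, here and below, use a t distribution with 3 degrees of freedom. They assume normal values of equal spread in both groups and do not come from the permutation test. After cyclic loess normalization the sign of the copy difference turned, to -0.22. The curve of that method runs along the mean log2 ratio, which contains the group difference, so the turn cannot decide whether the copy difference holds. An exact two-sided permutation test over the 5 arrays gave p = 0.200, which is the smallest p that 2 arrays against 3 allow. Against the pax3.L probe set that passed, the difference between copies was 0.79 (interval 0.58 to 1.00), also with an exact permutation p of 0.200. Across the 6 copy comparisons the exact permutation p adjusted by Benjamini-Hochberg was 0.200 for each. For 1017 genes with probe sets of both copies, the median size of the S against L difference was 0.19. Of these genes 0.787% differed by as much as pax3 did at 1.34, with pax3.L as the mean of its probe sets. No such share was worked out for the difference of 0.79 against the pax3.L probe set that passed. The gene table from RefSeq (assembly Xenopus_laevis_v10.1) lists pax3.S among the older names of pax3.L and pax3.L among those of pax3.S, so which copy a probe set was drawn from depends on the age of the annotation.

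Snai1 and snai2 encode the closely related repressors Snail and Slug. Snai1.S read 4.81 and 7.06 with active zic1, against 0.763, 0.838 and 1.00 in control explants. Even the lower zic1 array lay 2.26 above the highest control on the log2 scale. The log2 difference was 2.76 ± 0.20 (limma adjusted p = 0.0157), a 6.76-fold higher level with an interval of 4.74 to 9.64, and among all 15490 probe sets it ranked 6 by signed difference and 8 by size in either direction. Within the sets of arrays the log2 difference was 2.59 and 2.82. The 2 zic1 arrays differed by 0.55 from each other, about as much as in zic5.S.

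Snai2.L read 1.24 and 1.65 with active zic1, against 0.876, 0.966 and 1.00 in control explants. The groups did not overlap, and zic1 replicate 2 was the higher array. The log2 difference of 0.60 ± 0.15, or 1.51-fold (interval 1.17 to 1.95), did not pass (limma adjusted p = 0.109; unadjusted p = 0.00869). Snai2.S read 1.00 and 1.23 with active zic1, against 0.821, 0.821 and 1.00 in control explants. Zic1 replicate 1 and control 3 were practically equal, so the separation rests on 0.0029 on the log2 scale. The difference was 0.34 ± 0.14 (limma adjusted p = 0.255). The snai2.S minus snai2.L difference, zic1 group minus control group, was -0.25 (interval -0.57 to 0.06; exact permutation p = 0.200). Of the genes with both copies 38.0% differed by as much.

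The AP-2 genes lay on both sides of 0. Tfap2b.L, an AP-2 gene of neural crest, read 1.25 and 1.66 with active zic1, against 1.00, 0.993 and 0.885 in control explants. The groups did not overlap, and the log2 difference of 0.59 ± 0.14, or 1.50-fold (interval 1.17 to 1.94), did not pass (limma adjusted p = 0.109; unadjusted p = 0.00855). It was 0.33 within the set of zic1 replicate 1 and 0.91 within the other. Tfap2a.L, which in Xenopus is expressed in epidermis as well as in the border, read 0.943 and 0.946 with active zic1, against 1.11, 1.05 and 1.00 in control explants. Both zic1 arrays were slightly below all controls, and the log2 difference was -0.15 ± 0.08 (limma adjusted p = 0.346). Its 95% interval, -0.36 to 0.05, does not include a rise as large as those of snai1.S, pax3.S or the pax3.L probe set that passed.

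**Figure D2:**
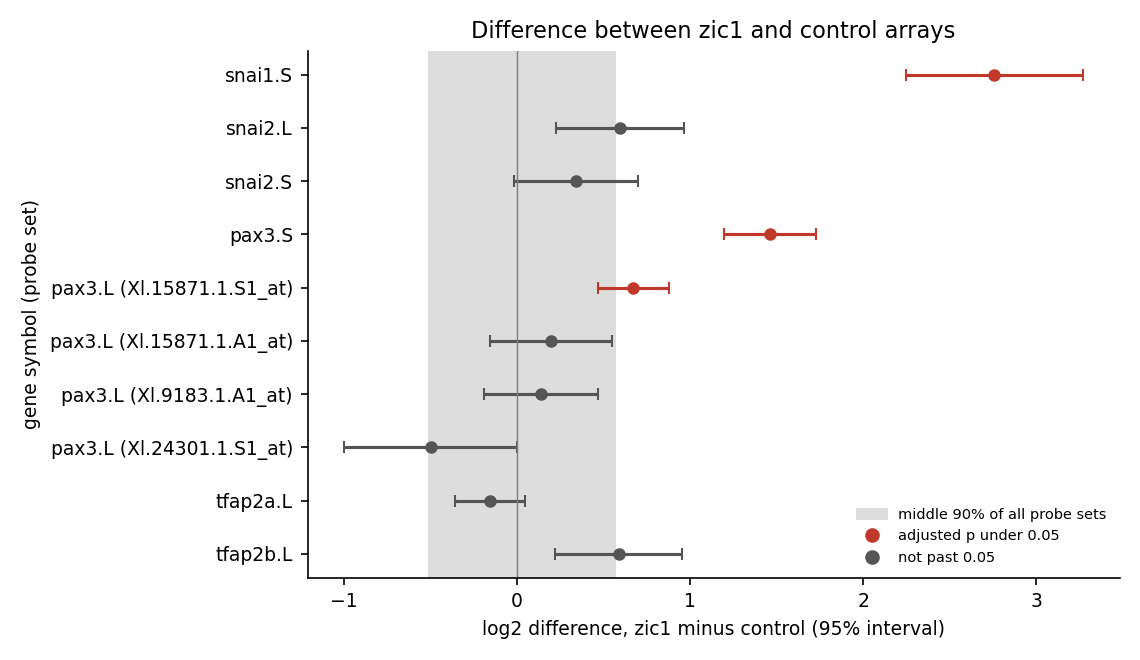
Log2 difference between zic1 and control arrays for each member probe set, with 95% intervals from the limma fit. The grey band holds the middle 90% of all probe sets, -0.51 to 0.57. Snai1.S at 2.76 and pax3.S at 1.46 lie far outside it, and tfap2b.L (0.59) and snai2.L (0.60) lie just beyond its upper edge.

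The precision of these values differed between members. Pax3.L Xl.15871.1.S1_at passed with a log2 difference of 0.67, while snai2.L and tfap2b.L, at 0.60 and 0.59, did not. The residual variance of the pax3.L probe set was larger than that of 18.0% of probe sets, against 73.4% for snai2.L and 72.3% for tfap2b.L. The 2 zic1 arrays also ranked the members differently. In snai1.S, snai2.L, snai2.S and tfap2b.L zic1 replicate 2 was higher than replicate 1 by 0.55, 0.42, 0.30 and 0.41 on the log2 scale. In pax3.S and pax3.L Xl.15871.1.S1_at it was replicate 1 that was higher, with differences of -0.21 and -0.16. The pax3.L probe sets that did not pass went both ways, with Xl.9183.1.A1_at at -0.30, Xl.24301.1.S1_at at 0.27 and Xl.15871.1.A1_at at 0.02, and tfap2a.L was at 0.0046. Replicate 2 was the higher array in 7 of the 10 members and in 56.3% of all probe sets. The standard deviation of that difference over all probe sets was 0.19, and the larger zic1.S probe set differed by -0.06.

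The calls changed when single arrays were left out. In the reported fit limma called 219 of the 15490 probe sets. Without zic1 replicate 1 or zic1 replicate 2, 0 of the 10 members passed, and limma called 0 probe sets of the whole table in either case. Without control 1 and without control 2 again 0 members passed, while the calls over the whole table fell to 21 and 5. Without control 3, snai1.S and pax3.S passed (limma adjusted p = 0.0377 and 0.0355), with 207 calls in the whole table. Sizes moved less. With single arrays left out, the log2 difference lay between 2.48 and 3.03 for snai1.S, between 1.36 and 1.57 for pax3.S and between 0.59 and 0.75 for the pax3.L probe set. Under cyclic loess normalization the 3 values turned to -0.20, -0.31 and -0.05 and none passed. The curve of that method runs along the mean log2 ratio, which here contains the group difference itself. Quantile normalization kept all 3 calls.

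**Figure D3:**
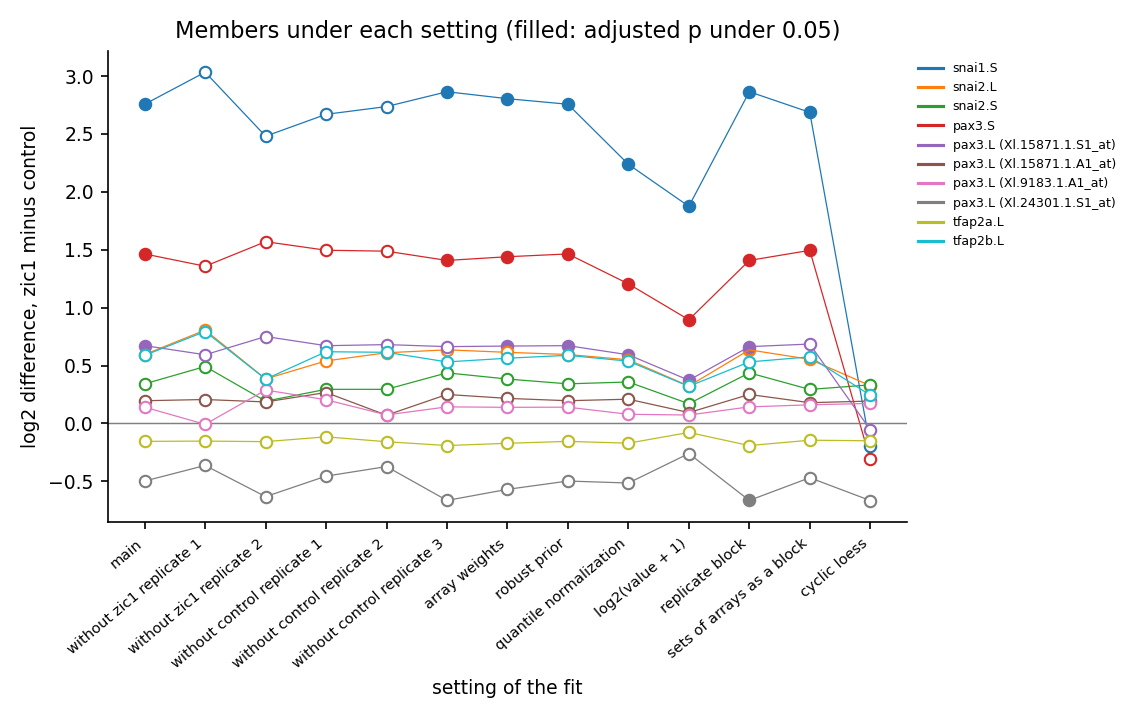
Log2 difference of each member probe set under the settings shown, with filled marks where the adjusted p was under 0.05. The fit without variance moderation, where 0 members passed, the relaxed threshold and the means per symbol are not drawn. Lines only join the marks of 1 probe set. Snai1.S lies between 1.88 and 3.03 and pax3.S between 0.90 and 1.57 in all settings shown but cyclic loess, where both fall below 0. Both lower ends come from log2(value + 1), a scale on which sizes cannot be compared with the other settings.

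Other genes of the border were read from lists of known regulators, chosen with earlier results of these data known. The border list held 33 probe sets of 15 genes besides the members. Of these 33, 4 were higher in zic1 explants and 0 lower, beside 1.1% and 0.316% of all probe sets. All 4 were Zic genes, zic1.S with 2 probe sets, zic5.S and zic2.L. The 2 probe sets of zic1.S may read the injected RNA, so their rise is no result about the border. Zic5.S read 2.36 and 3.46 with active zic1, against 0.913, 0.737 and 1.00 in control explants (log2 difference 1.70 ± 0.21, limma adjusted p = 0.0395). Zic2.L differed by 0.91 ± 0.12 (limma adjusted p = 0.0433). The 3 other Zic probe sets did not pass. They were 2 of zic2.S (0.75 ± 0.16 and 0.73 ± 0.21, limma adjusted p = 0.0865 and 0.137) and 1 of zic4.L (0.69 ± 0.16, limma adjusted p = 0.0937). Without the Zic family, 0 of 26 border probe sets passed in limma, and 7 had an unadjusted p under 0.05, of which 4 were higher and 3 lower. Of all probe sets, 20.9% had such a p in either direction. The median log2 difference of the 26 was 0.09.

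Among those 26 were the msx and dlx genes, homeobox genes that BMP signals induce on the epidermal side of the border. They were singled out after their values were seen. Of their 8 probe sets, of msx1, msx2, dlx3, dlx5 and dlx6, 0 passed in limma, and 3 had an unadjusted p under 0.05, all of them lower, a direction that 10.3% of the whole table took at that p. Both zic1 arrays lay below all controls in 4 and above them in 1, beside 19.4% and 19.9% of all probe sets. The averages were lower with zic1 in 7 of the 8, and a probe set of msx2.L was the exception at 0.16 ± 0.07, with its other probe set at -0.19 ± 0.20. Msx1.L read 0.712 and 0.775 with active zic1, against 1.02, 1.45 and 1.00 in control explants, a log2 difference of -0.62 ± 0.19 (limma adjusted p = 0.149). Msx1.S differed by -0.39 ± 0.12 (adjusted p = 0.166). Hes4.S, a Hairy-family repressor that keeps border cells undifferentiated, had its largest difference at 0.64 ± 0.11 in 1 probe set (limma adjusted p = 0.0611), with 4 others between 0.09 and 0.59. Prdm1.S of the border list was also higher, at 0.66 ± 0.13, 0.61 ± 0.15 and 0.40 ± 0.16. None of its probe sets passed (limma adjusted p = 0.0799, 0.113 and 0.250).

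The list of crest specifiers held 19 probe sets besides the members. Beside 1.1% of all probe sets in the higher direction, 1 of the 19 passed, higher with zic1. It was crabp2.L, which encodes a retinoic acid binding protein and is not itself a transcription factor. It read 3.87 and 3.05 with active zic1, against 0.888, 1.00 and 0.937 in control explants (log2 difference 1.87 ± 0.13, limma adjusted p = 0.0134). Of the other 18 probe sets 0 passed in limma, 3 had an unadjusted p under 0.05 (2 higher and 1 lower), and the median difference was 0.13. Of all probe sets, 10.6% were higher and 10.3% lower at that p. Foxd3, a forkhead gene of premigratory crest, differed by 0.17 ± 0.14 for foxd3.L and 0.27 ± 0.14 for foxd3.S, and neither passed. Sox9.S, a crest and cartilage regulator, read 1.56 and 1.15 with active zic1, against 0.852, 0.711 and 1.00 in control explants, and its log2 difference of 0.66 ± 0.20 did not pass (limma adjusted p = 0.148). Sox10.L lay at 0.07 ± 0.08. Of ets1, an ETS factor of cranial crest, the probe set with the largest difference, of ets1.L, lay at 0.45 ± 0.10 (limma adjusted p = 0.0896). The other ets1.L probe set lay at 0.32 and that of ets1.S at -0.04 (limma adjusted p = 0.346 and 0.862). Id2.S, an inhibitor of basic helix-loop-helix factors, lay at -0.36 ± 0.11 (limma adjusted p = 0.146).

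Genes of adhesion and migration that crest cells use, the processes that Snail factors act on in other vertebrates, held 35 probe sets. At an adjusted p under 0.05, 3 were higher and 0 lower, beside 1.1% and 0.316% of all probe sets. At an unadjusted p under 0.05 in limma, 10 were higher and 3 lower, beside 10.6% and 10.3%. A link of these genes to the difference in snai1 was not tested, and cycloheximide was present in both groups. Cdh1.S of this list lay at 0.09 (limma adjusted p = 0.504). Mmp14.L, a membrane-bound metalloproteinase, read 2.86 and 2.80 with active zic1, against 0.910, 0.808 and 1.00 in control explants (log2 difference 1.65 ± 0.11, limma adjusted p = 0.0134). The Eph receptor epha4.L rose by 0.92 ± 0.12 and the proteoglycan sdc4.S, a syndecan, by 0.62 ± 0.08 (adjusted p = 0.0407 and 0.0396). Another epha4.L probe set, at 1.09, did not pass (limma adjusted p = 0.0512). The probe sets of sdc4.L, between 0.28 and 0.45, did not pass either (limma adjusted p = 0.144 to 0.504). Among 51 probe sets of the signals that induce the border and of their antagonists, 4 were higher and 0 lower, beside the same 1.1% and 0.316%. The 4 were 2 probe sets of the FGF receptor fgfr2.L (1.21 ± 0.15 and 1.14 ± 0.12), wnt8a.L (1.04 ± 0.08) and the Wnt antagonist sfrp2.S (0.78 ± 0.08). At an unadjusted p under 0.05 in limma, 14 of the 51 were higher and 1 lower, beside 10.6% and 10.3%. In the preplacodal list 1 of 15 probe sets passed, of pax2.L (0.67 ± 0.09). At the unadjusted p, 4 of the 15 were higher and 0 lower. The array has 8 probe sets of pax2.L, and the 7 others lay between 0.11 and 0.49 without passing (limma adjusted p = 0.0807 to 0.638). Sox11.S, at 0.75 ± 0.18, did not pass either (limma adjusted p = 0.104).

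**Figure D4:**
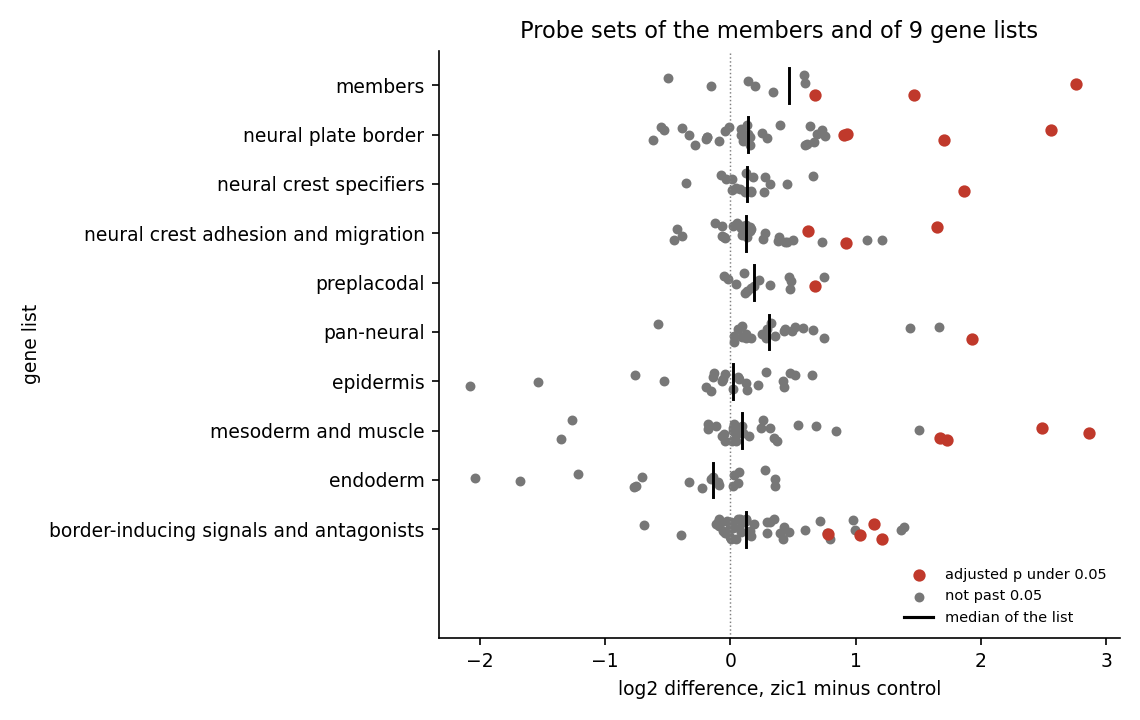
Log2 difference of each probe set in the members and in 9 gene lists, with red marks for an adjusted p under 0.05 and a black bar at the median. The medians of the lists lie between -0.14 for endoderm and 0.31 for pan-neural genes, beside 0.47 for the members. The lists overlap and were not tested against each other. The border list includes zic1.S, the injected gene.

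Markers of other tissues were read beside the members because snai1, snai2 and pax3 also mark mesoderm and tfap2a marks epidermis. Beside 1.1% of all probe sets in the higher direction, 4 of 31 in the mesoderm and muscle list passed, all higher. They were myod1.S (2.86 ± 0.18), vegt.L (2.49 ± 0.18), foxf1.L (1.73 ± 0.11) and myod1.L (1.67 ± 0.21), with a median of 0.09 over the list. At an unadjusted p under 0.05 in limma, 10 were higher and 2 lower, beside 10.6% and 10.3% of all probe sets. Szl.S and szl.L went the other way, at -1.27 and -1.35, without passing (limma adjusted p = 0.0570 and 0.0696). Eomes.L, at 1.50, and vegt.S, at 0.85, were higher and did not pass either (limma adjusted p = 0.0573 and 0.0820). The mean log2 ratio of that list was 0.24 and 0.37 with active zic1, against -0.08, -0.13 and 0.03 in control explants. Tbxt.S, the Brachyury gene of early mesoderm, read 1.03 and 1.04 with active zic1, against 0.993, 0.806 and 1.00 in control explants (log2 difference 0.15 ± 0.12, limma adjusted p = 0.533). Which cells held the snai1 and pax3 transcripts cannot be seen in these arrays, and the part of mesoderm in their difference was not tested.

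Epidermal genes passed in 0 of 23 probe sets in limma, with a median of 0.02. At an unadjusted p under 0.05 in limma, 3 were higher and 1 lower, beside 10.6% and 10.3% of all probe sets. The mean log2 ratio of the epidermal list was -0.24 and 0.08 with active zic1, against -0.21, 0.20 and 0.07 in control explants. The arrays of each group thus disagreed. The epidermal keratin krt12.4.S read 0.295 and 1.00 with active zic1, against 0.898, 2.46 and 1.76 in control explants. Its log2 difference was -1.53 ± 0.65 (limma adjusted p = 0.264), and that of krt12.4.L was -0.53 ± 0.59 (limma adjusted p = 0.672). Tfap2a.L was almost equal in the 2 zic1 arrays, and a link between its value and epidermal content was not tested. Of the epidermal genes with the largest moderated t, evpl.L lay at 0.65 ± 0.13, xepsin.L at 0.51 ± 0.10 and ppl.L at 0.22 ± 0.08 (limma adjusted p = 0.0760, 0.0785 and 0.191). Endoderm genes passed in 0 of 19 probe sets in limma. At an unadjusted p under 0.05 in limma, 1 was higher and 2 lower, beside the same 10.6% and 10.3%. In the endoderm list control 3 stood apart with a mean log2 ratio of 0.57, against -0.28 to -0.04 on the other 4 arrays. Both probe sets of the endoderm factor sox17b.1.S were low with active zic1 (log2 differences of -2.04 ± 0.38 and -1.68 ± 0.39) without passing, and mixer.S lay at 0.27 ± 0.07. Pan-neural genes, in explants that received noggin in both groups, passed in 1 of 24 probe sets, of sall1.L (1.93 ± 0.08), with a median of 0.31. At an unadjusted p under 0.05 in limma, 12 were higher and 1 lower, beside 10.6% and 10.3% of all probe sets. Both zic1 arrays lay above all controls in 15 and below them in 1, beside 19.9% and 19.4%. Sox2.L, at 0.66 and 0.58, did not pass (limma adjusted p = 0.121 and 0.178). Tubb2b.S went the other way, at -0.58 (limma adjusted p = 0.199). The other 2 probe sets of sall1.L lay at 0.09 and 0.44 (limma adjusted p = 0.848 and 0.221). Elavl3.L (1.66 ± 0.25) and the proneural gene neurog2.L (0.43 ± 0.07) did not pass (limma adjusted p = 0.0512 and 0.0632). As ratios keep no absolute level, it cannot be said whether any marker was near background.

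The probe sets nearest in pattern to the 3 that passed were found by the root mean square difference of the log2 ratios over the 5 arrays. For snai1.S they were myod1.S (0.121), the muscle determination factor, which read 5.49 and 6.49 with active zic1, against 0.699, 0.791 and 1.00 in control explants, then glipr2.S (0.216) and thop1.L (0.241). For pax3.S they were the forebrain homeobox gene hesx1.L (0.151), the forkhead factor foxo3.L (0.158) and the POU factor pou2f1.S (0.171). For pax3.L Xl.15871.1.S1_at they were the kinase gene cdk11b.S (0.0513), sfrp2.S (0.0683) and the cell cycle phosphatase gene cdc25a.L (0.0699). With 5 arrays such nearness describes the values and carries no test.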

How the data were processed

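Total RNA (2 µg per sample) was labelled with biotin for Affymetrix arrays, per the labels' protocols. GCOS and RMA are named in the submitters' processing notes, without steps or versions. The authors deposited linear ratios, since each of the 15571 probe sets with 5 values had a median of exactly 1, which no source states and the values show. Of 15572 probe sets, 81 Affymetrix controls and 1 without all values were left out. Of the 15490 tested, 9303 had 1 symbol, 195 several and 5992 none here. 9226 matched the RefSeq gene table, including all 7 member symbols.

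Log2 ratios were fitted by lmFit and eBayes (limma 3.58.1, R 4.3.3; 3 residual and 2.29 prior degrees of freedom), adjusted by Benjamini-Hochberg over the whole table. Ratios allow no filter on dim probes and no intensity trend, and precision is limited by having 5 arrays. The procedure was tested on simulated data. Copies were compared by an exact permutation test, with t intervals from the pooled variance of the groups beside it. Members, gene lists, tests and settings were chosen with earlier results of these data known, the 2 sets of arrays included. Named genes were all members, Zic genes, those of each list past the threshold or among its 3 largest moderated t, and the 3 nearest patterns of each member that passed. Other genes were named for their known roles or to set the named ones beside the rest of their list. Alternatives were single arrays left out, quantile and cyclic loess normalization, array weights, a robust prior, no moderation, log2(value + 1), a relaxed threshold, means per symbol, and the replicate number or the sets of arrays as a block. Sequences were not used here. Figures used matplotlib 3.10.9 (Python 3.11.15).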

Additional observations from a re-analysis of the deposited data

How the results depend on the processing

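Of 10 members, 3 passed in the reported fit. The count was 0 after cyclic loess and 0 without variance moderation (0 calls in the whole table in both), and from 0 to 2 with single control arrays left out. At an unadjusted p under 0.05, cyclic loess left 2 members, both lower with zic1 (pax3.S at -0.31 and pax3.L Xl.24301.1.S1_at at -0.67). Without moderation 5 members had such a p. The share of all probe sets at that p is not given for these fits, so these counts cannot be read as results about the members. In the reported fit that share was 20.9% in either direction. With the replicate block the count was 5, in both directions. Snai2.L at 0.64 and pax3.L Xl.24301.1.S1_at at -0.66 joined the 3 (limma adjusted p = 0.0237 and 0.0150). The calls over all 15490 probe sets went from 219 to 2692 there. The count was also 3 with array weights, an adjusted p under 0.10, log2(value + 1), the robust prior and quantile normalization, beside 935, 1054, 314, 186 and 109 calls in the whole table. It was 2 with the array sets as a block (37 calls in all) and with means per symbol (145 symbols called).

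Cyclic loess reversed snai1.S (-0.20), pax3.S (-0.31), pax3.L Xl.15871.1.S1_at (-0.054) and the pax3 copy difference (-0.22). As its curve runs along ratios that contain the group difference, these reversals cannot decide whether the differences hold. With single arrays left out the log2 differences ran from 2.48 to 3.03, from 1.36 to 1.57 and from 0.59 to 0.75 for the 3 probe sets that passed, with adjusted p up to 0.301, 0.379 and 0.387. Where 1 zic1 array was left, its spread was taken to equal that of the controls. Pax3.L Xl.9183.1.A1_at ran from -0.0076, without zic1 replicate 1, to 0.29. Fitted with the array sets as a block, pax3.L Xl.15871.1.S1_at lay at 0.69 and did not pass. The other settings turned no member's sign.

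The replicate block leaves 1 residual degree of freedom, and control 3, alone in its block, adds nothing to the estimate. The labels do not say that equal numbers share embryos. Deviations from the group means correlated at 0.32 for number 1 and 0.28 for number 2, across probe sets. With 2 zic1 arrays these deviations are equal and opposite. Zic1 replicate 2 with control 1 and zic1 replicate 1 with control 2 thus had to give -0.32 and -0.28. The values are not independent, and whether equal numbers form pairs was not tested. The number of arrays limits these results, and no signal over background can be given for ratios.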
